A study of Mus musculus with 6 samples.

Results

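The proteasome is the large protease that breaks down most proteins that cells have marked with ubiquitin. Here its genes were followed in cultured cells of the embryonic mouse cortex after knockdown of Ybx1, a cold-shock protein that binds mRNA and recognises 5-methylcytosine in it. All genes in the deposited table were taken whose symbol begins with Psm, a letter from a to g and a number. This gave 49 genes of the 17920 listed, namely 18 core genes (Psma and Psmb), 26 regulatory genes (Psmc, Psmd and Psme) and 5 genes of an inhibitor and of assembly chaperones (Psmf and Psmg). One of them, Psmc3ip, matched by symbol only, since it encodes a partner of Psmc3 known from meiotic recombination.

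Cells were dissociated from the cortex at stage E13.5, cultured, infected with a lentivirus that carried a short hairpin RNA, and selected with puromycin, which kills cells that lack the virus. The labels name the 3 control libraries WT and the 3 knockdown libraries KD. WT cells received a control hairpin and KD cells a hairpin against Ybx1, and both groups went through the same infection and selection. Which of the hairpins against Ybx1 was used, and the strain and sex of the embryos, are not given in the sources used here. The labels list these samples as brain tissue with a genotype, whereas the methods of the study describe cultures. The p-values below measure the spread between the 3 replicate experiments of each group. Except where a block is named, they do not pair WT and KD libraries by replicate number.

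Totals lay between 16294635 and 16497505 estimated counts per library. Ybx1 fell from 629 ± 21 to 116 ± 37 CPM (mean ± SD, n = 3; CPM, counts scaled to library size), and KD replicate 3 kept the most, 25.3% of the WT mean. Of the 10 fixed markers of cortical progenitors and neurons all were detected, with summed levels of 2585 to 3046 TPM (a level that also divides by transcript length) in WT and 2964 to 3130 TPM in KD. Among them 4 rose (40.0%, where 12.0% of all genes rose), Pax6, Eomes and Dcx included, and 6 were not called. The neuronal gene Tubb3, not called at a log2 fold change of -0.06, averaged 1798 TPM in WT. It made up most of the sum, which therefore says little about progenitors. Markers of GABAergic neurons (457.9 to 676.5 TPM in WT, 493 to 758 TPM in KD) and of glia (199 to 251 TPM in WT, 199 to 226 TPM in KD) were present as well, so the cultures held several cell types. Of these, Dlx2 rose from 30.5 to 71.5 CPM (log2 fold change 1.23, adjusted P = 0.000959 by edgeR), 1 of 6 GABAergic markers, and 0 of 7 glial markers passed. With the replicate number as a block, 7 cortical markers were higher, 2 GABAergic markers were higher and 1 lower (Gad1), and 2 glial markers were lower (Sox10 and Olig2). With that block 36.6% of all genes were called. In such bulk RNA, a change in the share of a cell type and a change in RNA per cell cannot be told apart. The part of these marker shifts in the results below was not tested.

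The proteasome has a barrel-shaped core particle with rings of alpha subunits outside and rings of beta subunits inside, and 3 kinds of beta subunit carry the protease sites. A regulatory particle caps the core. Its base holds a ring of ATPases that unfold proteins and thread them into the core, and its lid removes ubiquitin. Other caps, the PA28 and PA200 activators, bind the same core without a need for ubiquitin, and dedicated chaperones assemble core and base. Because subunits enter the particle in fixed proportions, their genes are often controlled together, in mammals by the transcription factor Nfe2l1. Dividing progenitors depend on the particle to remove cyclins and CDK inhibitors on time.

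Of the 49 genes, 45 passed the filter on low counts and were tested. Psmb8, Psmb9, Psmb11 and Psme2b did not pass it. After Ybx1 knockdown 4 proteasome genes were higher (Psmc2, Psme4, Psma1 and Psmd13) and 5 were lower (Psmd1, Psmb1, Psmc1, Psme2 and Psmd3) at an adjusted P of 0.05 (edgeR's quasi-likelihood test, Benjamini-Hochberg over all 13669 genes tested). This is 20.0% of the tested members, against 24.0% of all genes tested, so proteasome genes were not called more often than genes in general. By direction the background was 12.0% higher and 11.9% lower. All KD values lay on one side of all WT values in 19 of the 45 genes, or 42.2%, against 41.6% of all genes. At an unadjusted P of 0.05, 14 members passed, where 37.9% of all genes did. DESeq2 called 4 higher and 3 lower, with a background of 20.4%. Changes were small. The median log2 fold change was -0.06 over the members and 0.00 over all genes, the middle 50% of members lay between -0.12 and 0.03, and the median size of a change, whatever its sign, was 0.09 against 0.16. The set of all genes also holds genes at much lower levels, whose fold changes are noisier. Sizes of change were not compared at matched level. With the replicate number as a block, Psme3 and Psmc4 were also called higher and Psmd9 lower, so that 6 were higher and 6 lower, where 36.6% of all genes were called.

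**Figure D1:**
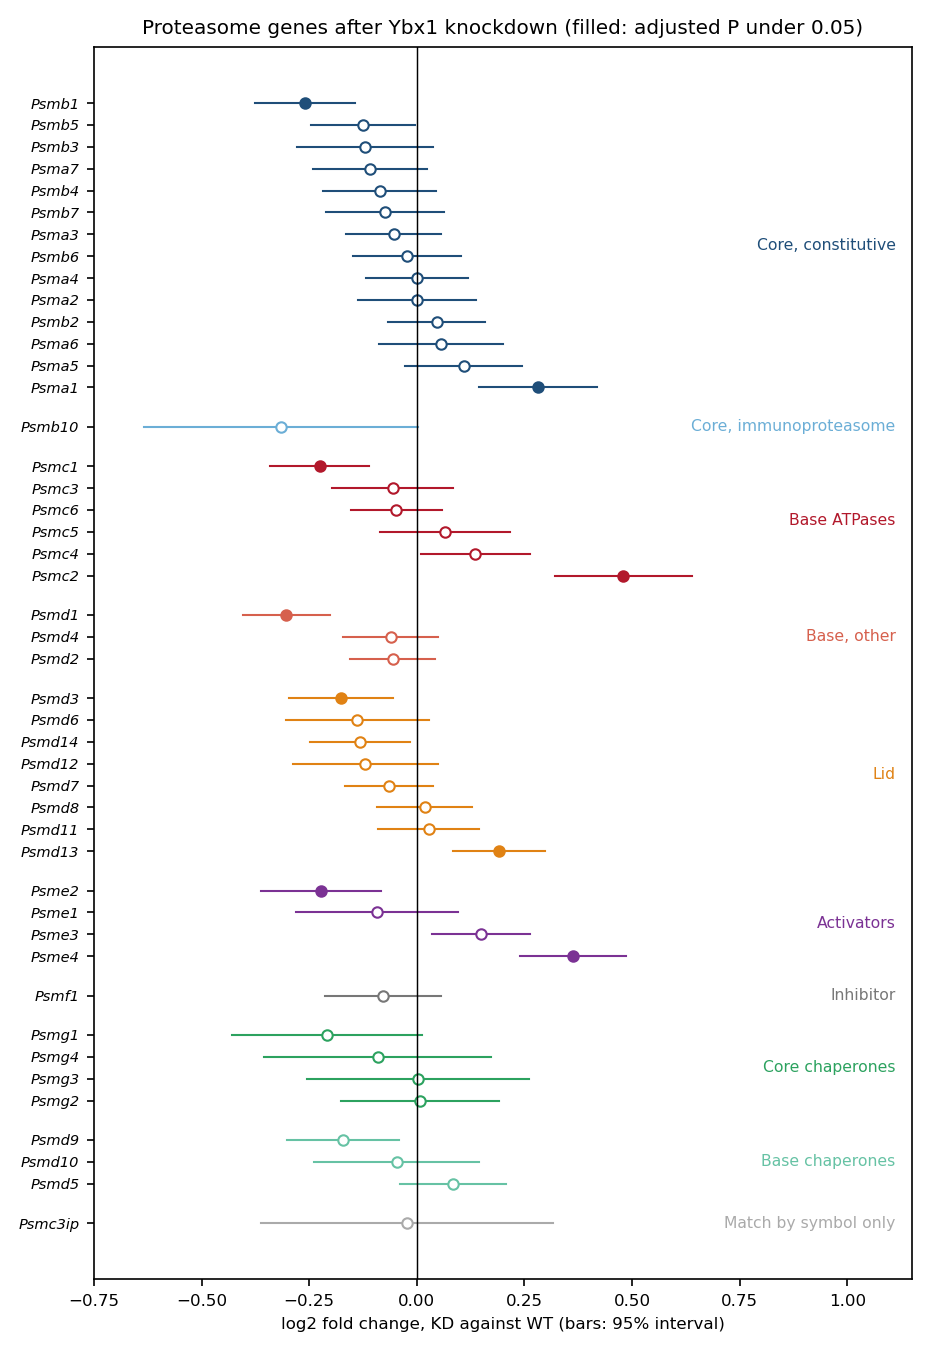
Log2 fold change of KD against WT for the 45 proteasome genes tested, grouped by role, with 95% intervals and with filled points for an adjusted P under 0.05. The filled points lie on both sides of 0, from -0.30 for Psmd1 to 0.48 for Psmc2, and most other intervals cross 0.

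As a class, constitutive core genes had the highest mean level. In WT the 14 constitutive core genes lay between 134 TPM (Psma5) and 417 TPM (Psmb4) on average. Their summed level was 4159, 4184 and 3897 TPM in WT replicates 1 to 3 and 4139, 4165 and 4050 TPM in KD replicates 1 to 3, so the groups overlapped. Split by ring, the alpha genes summed to 1567 to 1683 TPM in WT and 1698 to 1754 TPM in KD without overlap, and the beta genes to 2330 to 2506 TPM and 2352 to 2411 TPM with overlap. Without Psma1 the alpha sums overlapped as well (1426 to 1526 TPM in WT, 1516 to 1562 TPM in KD). In TPM the median of all genes was itself shifted by 0.05 on the log2 scale. In the alpha ring 1 of 7 genes rose, and in the beta ring 1 of 7 fell, 14.3% each, close to the 12.0% of all genes that rose and the 11.9% that fell. Psma1 (Entrez Gene 26440, on chromosome 7 at 114264550 to 114276116), which encodes the alpha6 subunit, was at 70.3, 76.9 and 67.0 CPM in WT and 85.6, 88.3 and 86.5 CPM in KD. All KD libraries lay above all WT libraries. The rise was 1.22-fold (log2 fold change 0.28, SE 0.06, adjusted P = 0.0115 by edgeR), and the adjusted P was 0.0504 without KD replicate 2, against 0.00106 to 0.0504 over all alternatives. Psmb1 (Entrez Gene 19170, chromosome 17 at 15475721 to 15498276), which encodes the beta6 subunit without a protease site, was at 146, 141 and 134 CPM in WT and 114, 116 and 121 CPM in KD. The groups did not overlap, and Psmb1 fell by 16.5% (log2 fold change -0.26, SE 0.05, adjusted P = 0.00808).

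The promoter of Psma1 is shown because this gene was the core gene that rose. It is the 250 bases before the start of transcription, chr7:114276117-114276366 of GRCm38.p6 on the minus strand, from RefSeq, written 5′ to 3′. Capitals mark matches on either strand to 4 short motifs, the CCAAT box (CCAAT), the GC box (GGGCGG), the ETS core (CCGGAAG) and the core of the antioxidant response element (TGACNNNGC), which Nfe2l1 and Nfe2l2 bind.
Psma1: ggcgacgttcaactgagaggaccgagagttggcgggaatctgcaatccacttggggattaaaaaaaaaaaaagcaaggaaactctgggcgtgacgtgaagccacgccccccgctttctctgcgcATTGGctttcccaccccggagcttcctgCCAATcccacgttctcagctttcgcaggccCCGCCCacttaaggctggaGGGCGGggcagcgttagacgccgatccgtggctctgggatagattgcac
This window holds 2 CCAAT boxes, 126 and 98 bases before the start, and 2 GC boxes, but no match to the other motifs.

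Of the genes for the beta subunits with protease sites, none was called. Psmb5, whose product cuts after hydrophobic residues and is the main target of proteasome inhibitor drugs, was at 82.6, 83.4 and 76.9 CPM in WT and 74.3, 76.3 and 72.1 CPM in KD. The KD values were all below the WT values, by a log2 fold change of -0.12 (95% interval -0.247 to -0.0032) that missed the threshold (adjusted P = 0.123 by edgeR). Psmb6, the caspase-like subunit, was at 124, 121 and 111 CPM in WT and 119, 119 and 112 CPM in KD, with overlapping groups and an interval of -0.15 to 0.10. Psmb7, the trypsin-like subunit, was at 108, 112 and 98.4 CPM in WT and 103, 95.8 and 103 CPM in KD, again overlapping, with an interval of -0.21 to 0.06.

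The immunoproteasome exchanges these subunits for Psmb8, Psmb9 and Psmb10, mostly in immune cells or after interferon. All were scarce here. Psmb8 had 7, 8 and 7 counts in WT and 5, 4 and 9 in KD, and Psmb9 had 7, 7 and 8 counts in WT and 6, 7 and 9 in KD. Psmb10 was at 9.23, 8.70 and 7.04 CPM in WT and 6.13, 7.32 and 6.61 CPM in KD. Its groups overlapped through KD replicate 2 and WT replicate 3, and the log2 fold change of -0.32 (SE 0.14) did not pass the threshold (adjusted P = 0.134 by edgeR). On the TPM scale the sum of Psmb5, Psmb6 and Psmb7 was 45.3 to 51.5 times that of the immune forms in WT and 52.4 to 61.8 times in KD. All 7 fixed markers of microglia together came to 2.88 to 6.03 TPM in WT and 3.46 to 5.04 TPM in KD, with Trem2 at a mean of 0.05 TPM in WT. Psmb11, the thymus form, had 0 counts in all WT libraries and in KD replicate 2, and 1 count each in the other KD libraries. A count of 0 allows up to 3 counts, or 0.19 CPM, counting error only.

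**Figure D2:**
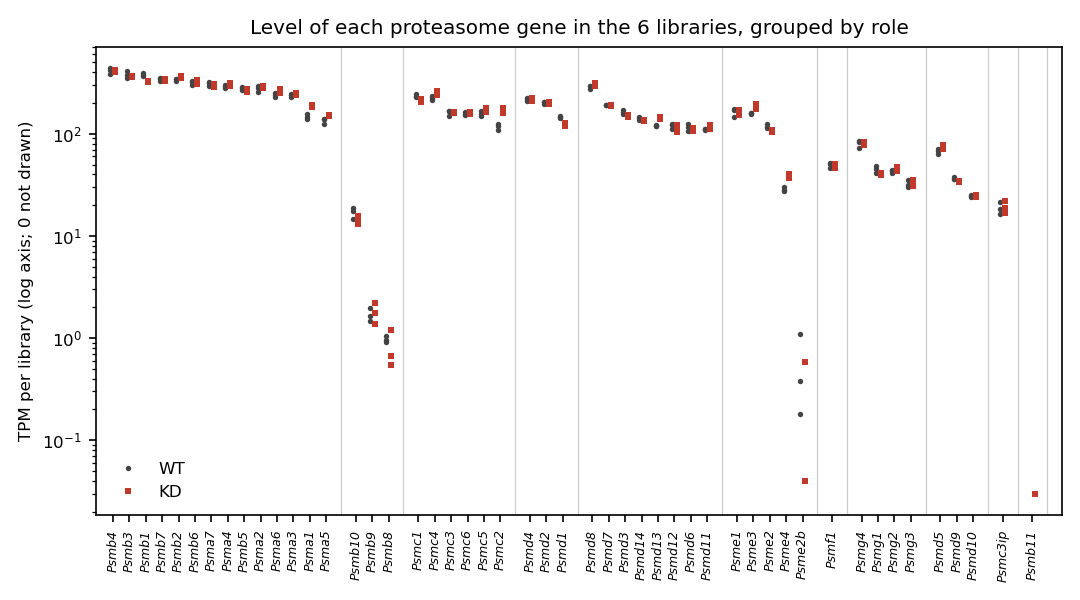
Level of each of the 49 proteasome genes in TPM, on a log axis, with 3 WT points and 3 KD points per gene and genes grouped by role (core, immunoproteasome, ATPases, other base, lid, activators, inhibitor, chaperones). Constitutive core genes lay highest on average, though single regulatory genes such as Psmd8 (288 TPM in WT) exceeded several of them, and Psmb8, Psmb9, Psme2b and Psmb11 lay below 3 TPM in every library. A level of 0 is not drawn.

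The ATPase ring of the base held the largest rise of all members. Psmc2 (Entrez Gene 19181, chromosome 5 at 21785275 to 21803787), which encodes Rpt1, was at 69.1, 73.5 and 62.6 CPM in WT and 89.6, 99.2 and 97.4 CPM in KD. The lowest KD library lay above the highest WT library, and the rise was 1.39-fold (log2 fold change 0.48, SE 0.07, adjusted P = 0.00238 by edgeR). Psmc1 (Entrez Gene 19179, chromosome 12 at 100110202 to 100123364), which encodes Rpt2, went the other way, with 143, 151 and 138 CPM in WT and 126, 122 and 121 CPM in KD. It fell by 14.45% (log2 fold change -0.23, SE 0.05, adjusted P = 0.0144), and the adjusted P rose to 0.0624 without WT replicate 2 and 0.0589 without KD replicate 2. Psmc4, which encodes Rpt3, lay at 120.3 to 135.5 CPM in WT and 135.8 to 143.3 CPM in KD without overlap. It was called with the replicate block (adjusted P = 0.0383, against 0.108 without it, by edgeR). On TPM it was called as well (adjusted P = 0.0307 by limma), where the median of all genes was itself shifted by 0.05. Psmc3, Psmc5 and Psmc6 had log2 fold changes of -0.06, 0.07 and -0.05 and were not called.

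On the TPM scale, Psmc2 was the lowest of the 6 ATPase genes in every WT library and Psmc1 the highest. The highest ATPase gene was 1.99, 1.98 and 2.12 times the lowest in the WT libraries and 1.62, 1.64 and 1.56 times in the KD libraries, so the levels of these 6 genes lay closer together in KD. Without Psmc2 the ratios were 1.52 to 1.59 in WT and 1.56 to 1.64 in KD. The narrower range in KD therefore rested on Psmc2. The sum of the 6 genes was 1006 to 1092 TPM in WT and 1101 to 1153 TPM in KD, without overlap, and it overlapped without Psmc2 (897 to 968 TPM in WT, 931 to 975 TPM in KD). In TPM the median of all genes was itself higher in KD by 0.05 on the log2 scale, and the sums were not corrected for this. The ring is built from 1 copy of each ATPase, and protein was not measured here. These sums and ratios without single genes were added after the data were seen.

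The promoters of Psmc2 (chr5:21785025-21785274, plus strand, the more upstream of 2 listed starts) and Psmc1 (chr12:100109952-100110201, plus strand) are shown together, since these genes of the same ring moved in opposite directions. Capitals mark the same motifs as above.
Psmc2: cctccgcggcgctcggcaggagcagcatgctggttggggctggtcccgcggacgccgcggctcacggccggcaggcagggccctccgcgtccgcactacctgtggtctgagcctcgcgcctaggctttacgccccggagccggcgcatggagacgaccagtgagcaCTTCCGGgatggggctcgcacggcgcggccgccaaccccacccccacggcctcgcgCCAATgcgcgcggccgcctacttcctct
Psmc1: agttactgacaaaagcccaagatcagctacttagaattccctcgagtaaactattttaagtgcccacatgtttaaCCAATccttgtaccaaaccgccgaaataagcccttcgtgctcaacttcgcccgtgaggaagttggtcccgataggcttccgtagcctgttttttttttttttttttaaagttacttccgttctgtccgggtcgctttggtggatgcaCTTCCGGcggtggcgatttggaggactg
Both windows hold 1 ETS core on the reverse strand, 84 bases before the start in Psmc2 and 28 in Psmc1, and both hold 1 CCAAT box, 28 and 175 bases before the start. Both kinds of match were thus shared, at different distances from the start. The part of these matches in either change was not tested.

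Among the other genes of the base, Psmd1 (Entrez Gene 70247, chromosome 1 at 86064619 to 86139295) showed the largest fall of all members called. It encodes Rpn2, a large scaffold of the base. Its level was 219, 224 and 211.5 CPM in WT and 176, 180.4 and 175 CPM in KD, with no overlap. It fell by 19.0% (log2 fold change -0.30, SE 0.04, adjusted P = 0.00244 by edgeR). Psmd2, the related scaffold Rpn1, and Psmd4, the ubiquitin receptor Rpn10, were at -0.06 and -0.06 and not called.

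The lid held 1 rise and 1 fall among 8 genes, 25% against the 24.0% of all genes. Psmd13 (Entrez Gene 23997, chromosome 7 at 140882394 to 140898642), which encodes Rpn9, was at 77.1, 77.2 and 75.2 CPM in WT and 85.2, 88.1 and 88.7 CPM in KD. The groups stood apart, and the rise was 1.14-fold (log2 fold change 0.19, SE 0.05, adjusted P = 0.0205 by edgeR). Psmd3 (Entrez Gene 22123, chromosome 11 at 98682554 to 98695978), which encodes Rpn3, was at 152, 161 and 145 CPM in WT and 138, 131 and 137 CPM in KD. It also did not overlap, but its fall of 11.5% was the weakest call (log2 fold change -0.18, SE 0.05, adjusted P = 0.0412). Psmd13 lost its call in 4 of the 6 fits that left out 1 library (all but those without WT replicate 3 or KD replicate 1), with adjusted P values up to 0.0750, and Psmd3 in 5 of them (all but that without WT replicate 3), up to 0.149. Psmd14, the deubiquitinase Rpn11 that cuts ubiquitin chains from substrates, was at -0.13 (95% interval -0.25 to -0.01, adjusted P = 0.0957). The other 5 lid genes lay between -0.14 and 0.03.

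The activators moved apart from each other. Psme4 (Entrez Gene 103554, chromosome 11 at 30771775 to 30881150), which encodes PA200, a nuclear cap linked to the turnover of acetylated histones, was at 83.4, 86.4 and 91.0 CPM in WT and 109, 117 and 110.3 CPM in KD. The groups did not overlap. The rise was 1.29-fold (log2 fold change 0.36, SE 0.05, adjusted P = 0.0026 by edgeR), the second largest among the members. Psme3, which encodes the nuclear PA28 gamma ring, was at 193, 194.5 and 184 CPM in WT and 201, 220.3 and 212 CPM in KD, also without overlap. Its log2 fold change of 0.15 (SE 0.05) missed the threshold (adjusted P = 0.0608) and passed it with the replicate block (0.0259), with library totals alone and on TPM. Library totals and TPM also shifted the median of all genes upward, by 0.02 and 0.05. Psme2 (Entrez Gene 19188, chromosome 14 at 55587440 to 55591101), the beta subunit of the cytoplasmic PA28 ring, was at 37.4, 35.6 and 34.0 CPM in WT and 31.2, 29.8 and 30.7 CPM in KD. It fell by 14.3% (log2 fold change -0.22, SE 0.06, adjusted P = 0.0306), and this call was lost in 5 of the 6 fits without 1 library (all but that without WT replicate 3), with an adjusted P of up to 0.112, and under DESeq2 (0.0957), with library totals alone and on TPM. Psme1, its alpha partner on the same chromosome, was at 60.5, 58.9 and 49.4 CPM in WT and 56.3, 51.0 and 51.0 CPM in KD, with overlapping groups and an adjusted P of 0.454.

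Counts of Psme2 were fractional in all libraries, as happens where reads fit more than 1 gene, and its near copy Psme2b was given between 0.22 and 7.02 estimated counts. The sum of both genes was 617, 584 and 548 counts in WT and 523, 489 and 510 counts in KD, so the groups stood apart in the sum as well. Counts of Psme4 were fractional in 2 libraries.

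The promoter of Psme4, the activator that rose, lies at chr11:30771525-30771774 on the plus strand, with the same motifs in capitals.
Psme4: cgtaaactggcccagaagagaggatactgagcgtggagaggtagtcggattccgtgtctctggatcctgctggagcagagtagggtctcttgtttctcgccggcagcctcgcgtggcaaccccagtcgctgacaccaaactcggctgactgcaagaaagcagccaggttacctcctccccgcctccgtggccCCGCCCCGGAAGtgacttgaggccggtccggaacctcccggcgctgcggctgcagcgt
It holds a GC box on the reverse strand, 58 bases before the start, that shares 1 base with an ETS core 53 bases before it.

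**Figure D3:**
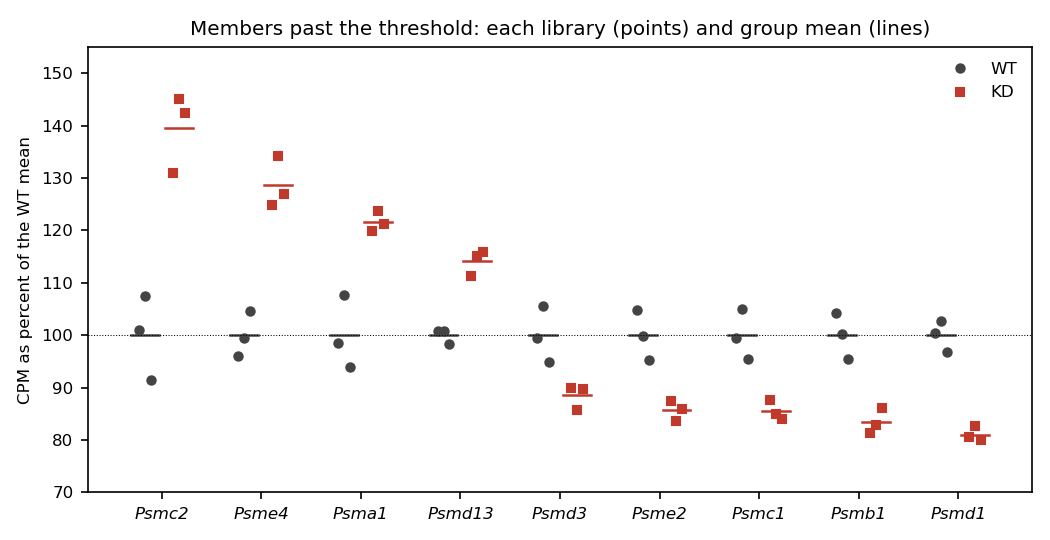
CPM of the 9 proteasome genes past the threshold in each of the 6 libraries, as percent of the WT mean, with lines at the group means. For every gene the 3 KD points lie on one side of the 3 WT points, from 1.39-fold higher for Psmc2 to 19.0% lower for Psmd1.

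The inhibitor and the assembly chaperones were not called. Psmf1, which encodes the core-binding protein PI31, was at 77.2, 77.7 and 69.6 CPM in WT and 69.4, 73.3 and 69.7 CPM in KD (95% interval of the log2 fold change -0.21 to 0.06), with fractional counts in all libraries. Of the chaperones that build the alpha ring, Psmg1 was at 18.4, 17.1 and 15.3 CPM in WT and 14.7, 14.1 and 15.2 CPM in KD. These did not overlap, but the log2 fold change of -0.21 had an interval of -0.43 to 0.01 (adjusted P = 0.153 by edgeR). Its partner Psmg2 was at 16.9, 18.0 and 17.2 CPM in WT and 18.2, 17.3 and 16.7 CPM in KD. Psmg3 was at 9.95, 8.70 and 8.78 CPM in WT and 9.74, 8.48 and 9.27 CPM in KD, and Psmg4 at 9.65, 9.94 and 8.35 CPM in WT and 9.32, 8.30 and 8.61 CPM in KD. Psmg2, Psmg3 and Psmg4 thus overlapped between groups. Of the base chaperones, Psmd9 passed as lower with the replicate block (log2 fold change -0.17, adjusted P = 0.042, against 0.0601 without it), and Psmd5 and Psmd10 were at 0.08 and -0.05.

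To compare core with regulatory genes, both classes were summarised over their tested members. The median log2 fold change was -0.05 over 15 core genes and -0.06 over 25 regulatory genes, and the difference between them was 0.00 (core minus regulatory, with an SD of 0.01 over the KD libraries). Core genes had 1 rise and 1 fall, and regulatory genes 3 rises and 4 falls. That is 13.3% of core and 28.0% of regulatory genes, on either side of the 24.0% of all genes. This contrast rested on few calls. Psmd3, Psme2 and Psmd13, whose calls were lost most often among the alternatives, are all regulatory genes, and DESeq2 called neither Psmd3 nor Psme2. Without the Psme genes the regulatory share was 23.8%. With base and lid subunits only it was 29.4%, against 14.3% of constitutive core genes. The 25 regulatory genes include Psmc3ip, which is no subunit. The libraries did not overlap for 4 core genes (26.7%) and 14 regulatory genes (56.0%), against 41.6% of all genes. Regulatory genes also spread somewhat wider, with an SD of 0.18 against 0.14 between genes, and 0.31 over all genes, which include noisier genes at much lower levels. The mean level of a constitutive core gene was 1.71 to 1.75 times that of a base or lid gene in WT and 1.70 to 1.72 times in KD, on the TPM scale, and these ranges overlapped. Single subunits moved up or down within both classes. Members share a role and were chosen together, so no test was made over them.

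The motifs described above, and the TATA box (TATAAA), were counted on both strands in the promoters of both classes. RefSeq promoters were listed for 42 of the 49 genes, without Psmb1, Psmb2, Psmb7, Psmc3, Psmd3, Psmd7 and Psmg2. They include Psmb8, Psmb9, Psmb11 and Psme2b, which were not tested, so the promoters of genes tested are an unlike set. Of these, Psmb9 and Psmb11 held a CCAAT box, Psmb9 a GC box and Psmb8 a TATA box. The ETS core was present in 11 of 23 regulatory promoters (47.8%) and in 0 of 15 core promoters. It was found in 13.2% of the 10899 promoters of genes tested here and in 7.07% of all 27025 promoters. Those with it were Psmc1, Psmc2, Psmc6, Psmd2, Psmd4, Psmd6, Psmd11, Psmd12, Psme3, Psme4 and Psmc3ip, which is no subunit. The CCAAT box was present in 8 of 15 core and 7 of 23 regulatory promoters, against 37.0% of the promoters of genes tested. The GC box was in 6 and 15 of them, against 59.6%, and the antioxidant response element core in 2 and 3, against 11.7%. The TATA box was in 2 of each class, against 6.1%. Among the called genes with a listed promoter, 2 of 4 that rose and 1 of 3 that fell held an ETS core, and 0 of these 7 held the antioxidant response element core. These are matches of letters within 250 bases before the start.

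Genes that work with the proteasome were followed by 3 fixed lists. Of 28 tested ubiquitin and proteasome partners, 0 rose and 4 fell, with a median log2 fold change of -0.02. This is 14.3% called, below the 24.0% of all genes. Adrm1, the ubiquitin receptor Rpn13 that docks on the Psmd1 product, fell from 102.7 ± 8.95 to 83.6 ± 0.67 CPM (n = 3, log2 fold change -0.30, SE 0.07, adjusted P = 0.0137 by edgeR), without overlap. Nploc4, a cofactor of the segregase Vcp, was at -0.17 (adjusted P = 0.0487), and the shuttle factor gene Ubqln4 at -0.15 (adjusted P = 0.0494). Both lost their call in 5 of the 6 fits without 1 library (all but that without WT replicate 3) and in 5 other alternatives, with adjusted P values up to 0.185, and Adrm1 lost it without WT replicate 2 (0.0513) or KD replicate 2 (0.0562). Without WT replicate 2, 0 of these genes passed. With the replicate block 3 were higher and 6 lower, where 36.6% of all genes were called with it. The split by direction depended on scaling, with 2 higher and 2 lower under library totals alone and 4 higher and 1 lower on TPM. Vcp was at -0.12 (adjusted P = 0.0848), Pomp, which matures the core, at 0.08 (0.554), and Sem1, the small lid subunit, at 0.18 (0.142). With the block Vcp (0.0343) and Sem1 (0.0481) passed.

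The circuit of Nfe2l1 and Nfe2l2, the factors that raise proteasome and antioxidant genes, held 0 rises and 7 falls among 16 tested genes, with a median of -0.23. This is 43.8% called, against 24.0% of all genes (12.0% higher, 11.9% lower). The list was chosen with earlier results of these data known and was not tested as a set, so this share is a description. Nfe2l1 itself had 209, 199.7 and 178 CPM in WT and 169, 162 and 157 CPM in KD. The groups stood apart, and Nfe2l1 fell by 0.26 on the log2 scale (SE 0.06, adjusted P = 0.0195 by edgeR), a call lost in 4 of the 6 fits without 1 library (all but those without WT replicate 3 or KD replicate 1, adjusted P up to 0.0758). Ddi2, the protease that cuts Nfe2l1 into its active form, fell from 35.6 ± 1.83 to 28.2 ± 2.14 CPM (-0.34, SE 0.07, adjusted P = 0.0129). Counts of Ddi2 were fractional in 4 libraries. The genes of the Nfe2l1 partners Mafg (-0.26, adjusted P = 0.00577) and Maff (-0.87, adjusted P = 0.0304) fell, as did Keap1, which restrains Nfe2l2 (-0.22, adjusted P = 0.0423). Maff was low, with means of 3.22 CPM in WT and 1.76 CPM in KD. Keap1 lost its call in 5 of the 6 fits without 1 library (all but that without WT replicate 3, adjusted P up to 0.147), with library totals alone, under DESeq2 and on TPM, and Maff lost it in 4 of the 6 (all but those without WT replicate 1 or KD replicate 3, up to 0.114). The antioxidant genes Gclm (-0.29, adjusted P = 0.00958) and Srxn1 (-0.40, adjusted P = 0.0185) fell too, Srxn1 without a call when WT replicate 2 (0.0755) or KD replicate 1 (0.0566) was left out. The other antioxidant genes of the list were not called. Of these, Txnrd1 (0.14), Hmox1 (0.13) and Gclc (0.05) lay above 0, and Nqo1 (-0.31) and Slc7a11 (-0.20) below. Ddi2, Mafg and Gclm kept their call in all 15 alternatives. Nfe2l2 had 15.5, 16.5 and 20.1 CPM in WT and 21.8, 18.8 and 22.2 CPM in KD, with overlapping groups (log2 fold change 0.27, adjusted P = 0.118). With the block it passed (0.0223), as did Txnrd1 (0.0480) and Nfe2l3 (0.0418), both higher. The list then held 3 higher and 7 lower genes, where 36.6% of all genes were called with the block (18.6% higher, 18.1% lower). Leaving out 1 library left 3 to 7 calls, with 3 without WT replicate 2 and 4 each without KD replicate 1 or KD replicate 2. Without WT replicate 3, 1 gene was higher (Nfe2l2, adjusted P = 0.0338) and 6 lower.

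Of the 10 genes of antigen processing, which acts on peptides from the proteasome, 0 rose and 2 fell, or 20.0%, near the 24.0% of all genes. These were Erap1, which trims such peptides (-0.49, SE 0.15, adjusted P = 0.0407 by edgeR, fractional counts in all libraries), and H2-D1, a class I molecule (-0.34, SE 0.10, adjusted P = 0.0412). Erap1 also lost its call under DESeq2 (0.0803), and H2-D1 with library totals alone (0.0545). In each of the 6 fits without 1 library, 0 or 1 of the 10 passed (0 without WT replicate 1, WT replicate 2 or KD replicate 1).

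**Figure D4:**
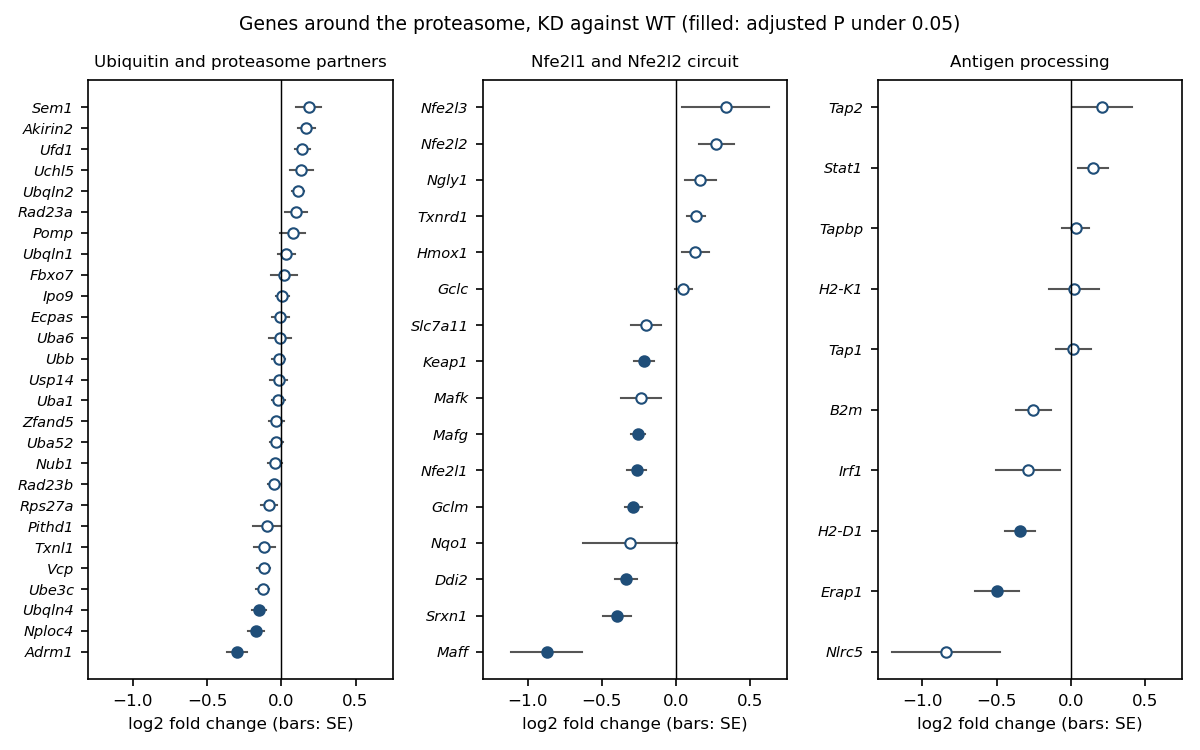
Log2 fold change of KD against WT with SE for genes of 3 lists around the proteasome, with filled points for an adjusted P under 0.05. All filled points lie below 0, with 3 of the 27 partners drawn, 7 of 16 genes of the Nfe2l1 and Nfe2l2 circuit and 2 of 10 antigen processing genes.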

How the data were processed

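RNA from 6 cortical cultures was sequenced by the authors as purified mRNA on the DNBSEQ platform. The submitters' notes name HISAT2 2.2.1, Bowtie2 2.4.5, RSEM 1.3.1 and the builds GRCm38 and mm10, without their roles. The annotation is not given in the sources used here. The authors deposited estimated counts with 2 decimals, not normalised, and TPM values, which divide by transcript length and sum to the same total in each library. Another 12 columns (FPKM and group averages) were not used.

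Estimated counts were rounded and tested over the whole table with edgeR 4.0.16 in R 4.3.3 (TMM scaling, filterByExpr with a minimum count of 10, quasi-likelihood F-test between KD and WT, two-sided, Benjamini-Hochberg adjustment, threshold 0.05). SE is the size of the log2 fold change over the square root of F. Fits were also run on simulated counts, with libraries drawn independently and few genes changed. That setting lacks the link between same-numbered libraries seen here, so it cannot show how the fits behave with it. Alternatives were other scalings, other filters on low counts, DESeq2 1.42.0, limma 3.58.1 (voom, and log2(TPM + 1) over genes with a mean TPM of at least 1), the replicate block and leaving out each library.

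Values in every library are given for each member past the threshold, the genes of subunits with protease sites, activators, the inhibitor and chaperones. Of the 3 lists, genes past the threshold and Nfe2l1, Nfe2l2, Sem1, Adrm1, Pomp and Vcp are named. Psmc4, Psmd9 and other genes were added after their values were seen. Members, lists and roles were chosen with earlier results of these data known. Of the genes past the threshold in the marker and partner lists, 1 each is not reported here by name. Coordinates and promoters come from RefSeq (GRCm38.p6), matched by Entrez Gene number.

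Replicates differed by more than sampling noise (chi-square of 4.43 to 8.66 per degree of freedom). Deviations from the group means correlated at 0.449, 0.384 and 0.253 between same-numbered libraries, across genes. The numbers may therefore pair the libraries, but no label gives the meaning of a number. The main fit used no block, since the methods of the study name none, and calls that changed with the block are given beside it. The between-library coefficient of variation was 7.69%, and 4.71% with the block.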

Additional observations from a re-analysis of the deposited data

How the results depend on the processing

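The 9 proteasome genes past the threshold kept their direction under all 15 alternatives, and 4 of them (Psmc2, Psme4, Psmd1 and Psmb1) also kept their call in each. Psme2 was called in 7 of the 15, Psmd3 in 6 and Psmd13 in 11. The number of members called was 9, and the replicate block raised it to 12 without losing any. It changed no call of a named gene other than those given in the report. Leaving out 1 library gave 4 to 11 members, with 4 without KD replicate 2 and 5 without WT replicate 2. Of these 2 to 4 were higher (2 without KD replicate 2) and 2 to 7 lower, with 2 lower without the second replicate of either group and 3 lower without WT replicate 1, the first KD library or the third one. With library totals alone, DESeq2 or limma-trend on TPM, 3 were lower in place of 5. For library totals, which shifted the median of all genes to 0.02, and for TPM, which shifted it to 0.05, the lost calls were Psmd3 and Psme2, and DESeq2 lost the same genes. The cause was not tested.

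The difference of medians between core and regulatory genes was 0.002. It was 0.0174 with no filter, 0.0294 on TPM, 0.0176 with constitutive core, base and lid genes only, and -0.0195 to 0.0181 without 1 library, below 0 without WT replicate 1, WT replicate 3 or KD replicate 3 and with limma-voom. Among uncalled genes Psmb6 was at 0.0341 on TPM and between -0.0662 and 0.0084 without 1 library. Psmg2 and Psmg3 were at -0.0135 and -0.0178 with upper quartile scaling and at -0.0257 to 0.0373 and -0.0429 to 0.0684 without 1 library. Psmg4 was at 0.0166 on TPM, and Pomp at -0.0244 to 0.1362 without 1 library. Partner genes called numbered 4, and 2 with RLE scaling, no filter or DESeq2. Antigen processing genes numbered 2, and 1 with library totals or DESeq2 and 0 on TPM. With a between-library variation of 7.69%, 95% intervals of the 45 tested members reached 0.10 to 0.34 either side on the log2 scale, with a median of 0.13, so the smallest change that could be detected differed between members.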
